A study of Mus musculus with 10 samples.

Results

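The 44 genes described here run mitosis. They comprise 8 kinases, 9 cyclins and other genes of mitotic entry and exit, 10 kinesins, 6 centromere and kinetochore genes, 3 other genes of the chromosomal passenger complex, 5 genes of the spindle midzone and cytokinesis, and Top2a, Mki67 and Foxm1. They were chosen by symbol, and each matched 1 Ensembl ID of the 18047 in the deposited table. All 44 had a mean of at least 10 normalized counts and were tested with 17975 genes in all. RNA came from frozen sections of tumours that had grown for 3 weeks in BALB/c mice. Their cells were 4T1, a line derived from a mammary carcinoma of the same mouse strain. Of the 10 libraries, 5 came from tumours of knockout cells (KO1 to KO5) and 5 from tumours of wild-type cells (WT1 to WT5). The in vivo growth is common to both groups, the labels name no further treatment, and neither the animal behind a library nor the number of knockout clones is given. An adjusted p therefore reflects only how these libraries vary, which may be partly technical.

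Cells divide their chromosomes on a spindle of microtubules. Cyclin B with Cdk1 starts mitosis, Aurora and Polo-like kinases build the spindle, and kinesins move along or shorten its microtubules. The spindle checkpoint holds back the anaphase-promoting complex until every kinetochore is attached, after which cyclin B and securin are destroyed. Most of these genes are transcribed in the G2 phase and in mitosis, through the MuvB complex, B-Myb and Foxm1, so their RNA is widely read as a sign of proliferating cells. In a tumour section that sign comes from carcinoma cells and from dividing immune or stromal cells together. In bulk RNA fewer dividing cells and less RNA per dividing cell cannot be told apart.

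Libraries held 8609756 to 19934428 reads in genes. The mitotic genes took 0.232% of the reads in KO3 and 0.585% in WT5, the lowest and the highest share. Their lowest count was 106 reads (Cdc25c in KO3; exact 95% Poisson interval 86.8 to 128, counting error only), and no member was near 0 in any library. The epithelial markers of the carcinoma were detected in all libraries, with 16 of 16 above 0 and a summed level of 14759 to 21581 normalized counts in KO and 21832 to 40465 in WT. KO5 and WT1 to WT4 carry the prefix RESUB in the library name, which the labels do not explain. WT2 and WT5 carry the same number, 170.

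Mitotic genes were slightly lower in the KO tumours as a set of fitted values, but no single gene passed the test. Of the 44, 41 had a lower fitted value in KO and 3 a higher one (93.2%, against 51% of all genes tested), with a median log2 difference of -0.27 against -0.00735 over all genes. Many of the 44 moved together between libraries, so they are not independent observations and the shares given here are descriptive. Past an adjusted p of 0.05 were 0 of 44 in limma, 0 in edgeR and 0 in DESeq2, where the tools called 0.00556%, 0.00556% and 0.673% of all genes. At an unadjusted p under 0.05 were 5 lower (11.4%) and 0 higher in limma, where 3.67% of all genes were lower and 2.82% higher. These 5 were Aurkb, Incenp, Plk1, Ect2 and Prc1. For 3 of the 44, Aurkb, Plk1 and Incenp, all KO values lay below all WT values (6.82%, against 0.734% of all genes), and for 0 they lay above (against 0.684%). edgeR and DESeq2 also had 5 lower and 0 higher at an unadjusted p under 0.05, where edgeR had 4.71% of all genes lower and 2.61% higher, and DESeq2 4.96% lower and 2.88% higher. In limma with sample weights, which give libraries with a larger residual spread less influence, 18 of the 44 (40.9%) were lower and 0 higher at an unadjusted p under 0.05, against 9.54% and 9.57% of all genes. Past the adjusted threshold it called 0 of the 44, against 2.27% of all genes, 0.974% lower and 1.3% higher.

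KO3 stood apart from the other libraries. It was the lowest of the 10 libraries for 37 of the 44 genes (84.1%, against 10.4% of all genes), and every one of the 44 was below its own mean there. Averaged over the 44 genes, the deviation from each gene's mean on the log2 scale was -0.15, -0.064, -0.67, 0.14 and 0.10 in KO1 to KO5, against 0.30, 0.16, -0.28, 0.066 and 0.39 in WT1 to WT5. The 2 groups overlapped: WT3 lay below KO1, KO2, KO4 and KO5, and KO4 and KO5 lay above WT4. WT5 was the highest library for 21 genes, WT4 for 10, WT2 for 8 and WT1 for 1, so that 40 of the 44 had their highest value in a WT library. The share of all genes with their highest value in a WT library was not counted. Over all genes the median SD on the log2 scale was 0.46 in WT and 0.37 in KO. Without KO3 the median difference was -0.13, with 32 of 44 lower and 1 gene at an unadjusted p under 0.05 (2.27%, against 3.38% of all genes lower and 2.36% higher). Without WT5 the median was -0.15, with 33 of 44 lower. In the other direction, 44 of 44 were lower without WT3, the WT library with the lowest mean deviation. Among the libraries without the prefix, which hold 4 KO libraries and WT5, the median was -0.59. There 10 genes (22.7%) were lower and 0 higher at an unadjusted p under 0.05, against 3.93% and 3.15% of all genes, and 0 passed the threshold, against 0.289% of all genes, 0.284% lower and 0.00556% higher. Among the prefixed ones, which hold KO5 and 4 WT libraries, it was 0.044, with 21 lower and 23 higher and 0 at an unadjusted p under 0.05 (against 2.61% of all genes lower and 1.18% higher), and with the prefix as a term it was -0.25.

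**Figure D1:**
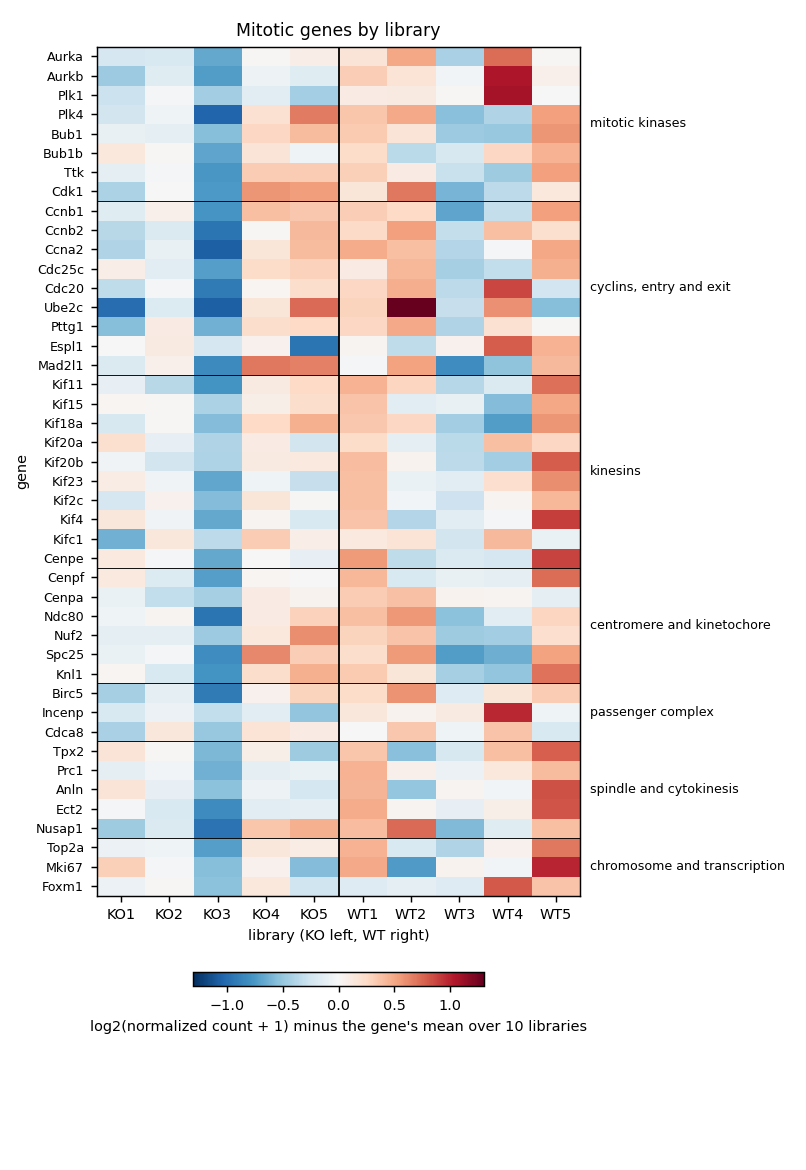
Heat map of the 44 mitotic genes (rows, grouped by role) in 10 libraries (columns, KO left and WT right). Colour is log2 of the normalized count plus 1 minus the gene's mean over the 10 libraries. The KO3 column is blue in every row, and the WT4 column is red for Aurkb, Plk1 and Incenp and blue for Kif18a and Spc25.

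Promoters of these genes are shown because the genes deviated together between libraries and the best known regulators of this programme act at 2 short elements. These are the cell cycle homology region (CHR), to which MuvB binds, and the CCAAT box, to which NF-Y binds. Plk1 and Prc1 are shown as 2 of the 5 genes with an unadjusted p under 0.05, and Ccnb2 and Cdk1 as partners in 1 kinase complex. Each sequence is the RefSeq promoter of GRCm38.p6, from 250 bases before to 50 bases after the annotated start, and capitals mark TTTGAA or TTCGAA and CCAAT on either strand.
Plk1, chr7:122159185-122159484, plus strand: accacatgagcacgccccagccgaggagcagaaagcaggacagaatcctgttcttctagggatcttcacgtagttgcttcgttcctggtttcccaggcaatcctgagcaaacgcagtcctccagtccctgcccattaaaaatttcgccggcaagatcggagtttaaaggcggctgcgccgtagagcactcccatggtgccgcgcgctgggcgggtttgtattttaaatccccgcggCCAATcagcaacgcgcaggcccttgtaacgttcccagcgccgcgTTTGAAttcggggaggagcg
Prc1, chr7:80294201-80294500, plus strand: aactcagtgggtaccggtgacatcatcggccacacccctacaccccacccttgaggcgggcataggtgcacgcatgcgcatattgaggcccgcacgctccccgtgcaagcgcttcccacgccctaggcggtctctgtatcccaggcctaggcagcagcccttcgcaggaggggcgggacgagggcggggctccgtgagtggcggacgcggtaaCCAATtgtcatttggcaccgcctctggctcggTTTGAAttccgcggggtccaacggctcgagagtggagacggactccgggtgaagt
Ccnb2, chr9:70421505-70421804, minus strand: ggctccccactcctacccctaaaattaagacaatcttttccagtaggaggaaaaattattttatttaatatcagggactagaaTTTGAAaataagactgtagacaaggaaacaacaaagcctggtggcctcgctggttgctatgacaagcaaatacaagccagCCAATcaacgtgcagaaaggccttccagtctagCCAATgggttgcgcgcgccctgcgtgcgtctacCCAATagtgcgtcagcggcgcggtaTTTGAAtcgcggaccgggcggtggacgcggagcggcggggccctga
Cdk1, chr10:69352863-69353162, minus strand: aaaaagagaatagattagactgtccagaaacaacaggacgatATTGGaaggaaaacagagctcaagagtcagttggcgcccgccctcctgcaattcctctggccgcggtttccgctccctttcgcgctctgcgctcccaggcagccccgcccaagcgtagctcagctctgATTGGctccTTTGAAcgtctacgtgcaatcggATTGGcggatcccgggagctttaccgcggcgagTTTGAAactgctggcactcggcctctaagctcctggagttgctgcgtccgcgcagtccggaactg
A window was given for 37 of the 44 genes. TTTGAA or TTCGAA was present in 28 of the 37 (75.7%), against 19.4% of the 27025 windows of all genes. CCAAT was present in 24 (64.9%), against 37.9%, and both elements in 22 (59.5%), against 7.7%. In 1 case a CHR match shared bases with a CCAAT match. The genes with CHR letters had a median log2 difference of -0.28 and the 9 without them -0.18, which was not tested. A match of letters is a description of the window and shows no binding.

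The mitotic kinases were all lower in KO by fitted value, 8 of 8 (median log2 difference -0.17, or 0.022 without KO3). Of these, 2 had an unadjusted p under 0.05, where 3.67% of all genes were lower at that p, and 0 passed the threshold. Aurkb, which encodes Aurora B, the kinase that corrects faulty attachments of chromosomes to the spindle, lies on chromosome 11 from 69045647 to 69051664, on the plus strand, in GRCm38. It had 222, 277, 187, 296 and 278 normalized counts in KO1 to KO5, against 386, 352, 302, 642 and 325 in WT1 to WT5. All KO values lay below all WT values, and WT4 stood far above the other WT libraries. Its level was 252 ± 45.8 in KO tumours, against 401 ± 138 in WT tumours (SD, 5 libraries a group; log2 difference -0.63 ± 0.22 SE, limma adjusted p = 0.674). Without WT4 the difference of Aurkb was -0.45. Plk1, the Polo-like kinase that drives centrosome maturation and mitotic entry, had 296, 355, 262, 324 and 265 normalized counts in KO1 to KO5, against 387, 389, 362, 762 and 359 in WT1 to WT5. The groups were separated by a narrow gap, and WT4 was again far above the rest. Its level was 300.4 ± 40.0 in KO tumours, against 452 ± 174 in WT tumours (SD, 5 libraries a group; log2 difference -0.53 ± 0.22 SE, limma adjusted p = 0.729), and without WT4 the difference was -0.33.

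Cdk1, the catalytic partner of cyclins A and B, had nearly equal means in the 2 groups. It had 1053, 1397, 832, 2081 and 2038 normalized counts in KO1 to KO5, against 1561, 2245, 919, 1108 and 1539 in WT1 to WT5. KO4, KO5 and WT2 were high and KO3 and WT3 low, so both groups held high and low libraries. Its level was 1480.2 ± 566 in KO tumours, against 1474 ± 512 in WT tumours (SD, 5 libraries a group; log2 difference -0.016, 95% interval -0.66 to 0.63), and the sign of so small a value turned under several settings. Aurka, which encodes the spindle pole kinase Aurora A, had a log2 difference of -0.39 (95% interval -0.89 to 0.10). The centriole duplication kinase Plk4 stood at -0.18, or 0.056 without KO3. The checkpoint kinase genes Bub1b, Ttk and Bub1 had log2 differences of -0.16, -0.085 and -0.045, and those of Ttk and Bub1 were 0.093 and 0.089 without KO3.

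**Figure D2:**
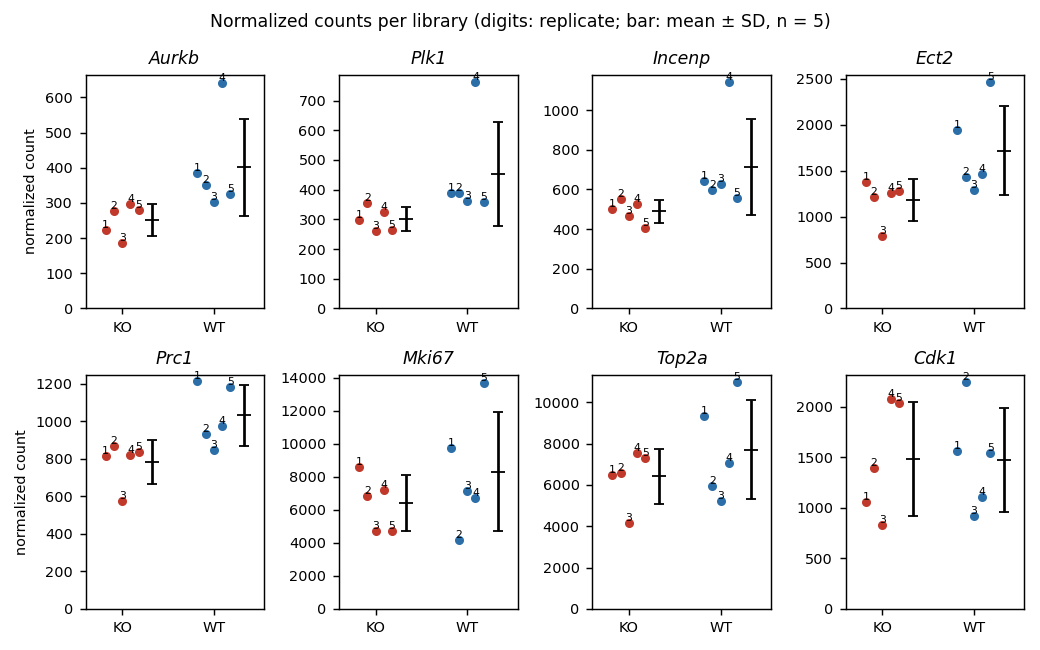
Normalized counts of 8 mitotic genes (vertical axis, from 0) in KO libraries (red, left) and WT libraries (blue, right), with digits for the replicate and a bar for the mean ± SD (n = 5 each). For Aurkb, Plk1 and Incenp no KO point reaches the WT points and replicate 4 is the top WT point, while for Mki67, Top2a and Cdk1 the groups overlap.

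Of the 9 genes of mitotic entry and exit 8 were lower in KO and 1 higher, with 0 at an unadjusted p under 0.05 (median log2 difference -0.39, or -0.18 without KO3). Ccnb2, a B-type cyclin, had 425, 477, 281, 552 and 731 normalized counts in KO1 to KO5, against 647, 787, 439.9, 713 and 631 in WT1 to WT5. KO2, KO4 and KO5 lay within the WT range, and KO3 was lowest. Its level was 493 ± 166 in KO tumours, against 644 ± 129 in WT tumours (SD, 5 libraries a group; log2 difference -0.43 ± 0.25 SE, limma adjusted p = 0.851), and the difference was -0.24 without KO3. Espl1 encodes separase, the protease that cleaves cohesin at anaphase. It had 316, 341, 271, 327 and 162.4 normalized counts in KO1 to KO5, against 323, 251, 328, 546 and 431 in WT1 to WT5. KO5 was the lowest and WT4 the highest, and WT2 lay below all KO libraries but KO5. Its level was 284 ± 72.7 in KO tumours, against 376 ± 115 in WT tumours (SD, 5 libraries a group; log2 difference -0.40 ± 0.25 SE, limma adjusted p = 0.874), and without WT4 the difference was -0.25. The cyclin genes Ccna2 and Ccnb1 had log2 differences of -0.39 and -0.045, and the proteins of both bind Cdk1. Cdc25c, the phosphatase that activates Cdk1, stood at -0.097. Mad2l1, whose protein is the core of the checkpoint signal, was the only gene of this group with a higher fitted value, at 0.16 (95% interval -0.54 to 0.87). Cdc20, the activator of the anaphase-promoting complex that this signal blocks, stood at -0.41, and Pttg1, which encodes securin, at -0.23.

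Ube2c, the ubiquitin-conjugating enzyme of the anaphase-promoting complex, had the widest error of the 44, at a log2 difference of -0.53 ± 0.39 (SE). It had 308, 542, 294, 684 and 1024 normalized counts in KO1 to KO5, against 750.5, 1502, 498, 927 and 416 in WT1 to WT5. WT2 was far above all others. Its exons share 592 bases with Tnnc2, a troponin gene of fast skeletal muscle on the opposite strand, and whether the reads were counted by strand is not given. Tnnc2 had 4.19, 130.4, 0, 85.8 and 49.8 normalized counts in KO1 to KO5, against 237, 2565, 0, 53.6 and 171.7 in WT1 to WT5, so WT2 was the highest library for both genes. Without WT2 the difference of Ube2c was -0.27. How far reads of Tnnc2 entered the count of Ube2c was not tested.

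All 10 kinesin genes had lower fitted values in KO, with a median log2 difference of -0.20 (-0.10 without KO3) and 0 at an unadjusted p under 0.05. Kif23, a motor of the centralspindlin complex that bundles the spindle midzone, had 818, 744, 481, 737 and 622 normalized counts in KO1 to KO5, against 1006, 722, 693, 891 and 1169 in WT1 to WT5. KO3 was lowest and WT5 highest, and WT2 and WT3 lay within the KO range. Its level was 680.2 ± 132 in KO tumours, against 896 ± 199 in WT tumours (SD, 5 libraries a group; log2 difference -0.39 ± 0.20 SE, limma adjusted p = 0.789). Kif11, the motor that pushes spindle poles apart, had 1541, 1290.5, 967, 1798 and 1993 normalized counts in KO1 to KO5, against 2269.7, 2017, 1282, 1460.4 and 2735 in WT1 to WT5. The groups overlapped widely, with WT3 and WT4 among the KO values. Its level was 1518 ± 406 in KO tumours, against 1953 ± 594 in WT tumours (SD, 5 libraries a group; log2 difference -0.35 ± 0.25 SE, limma adjusted p = 0.89), and the difference was -0.20 without KO3 and -0.22 without WT5. Kif4, a motor of chromosome arms, and Cenpe, which carries chromosomes to the spindle equator, had log2 differences of -0.29 and -0.27, and without WT5 these were -0.10 and -0.089. The microtubule-shortening kinesin gene Kif2c stood at -0.22, the cytokinesis genes Kif20a and Kif20b at -0.17 and -0.18, and Kifc1, a motor that moves to the minus end, at -0.16. Kif15, which backs up Kif11, and Kif18a, which dampens chromosome movement, stood at -0.030 and -0.00713 (95% interval -0.60 to 0.59 for Kif18a).

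**Figure D3:**
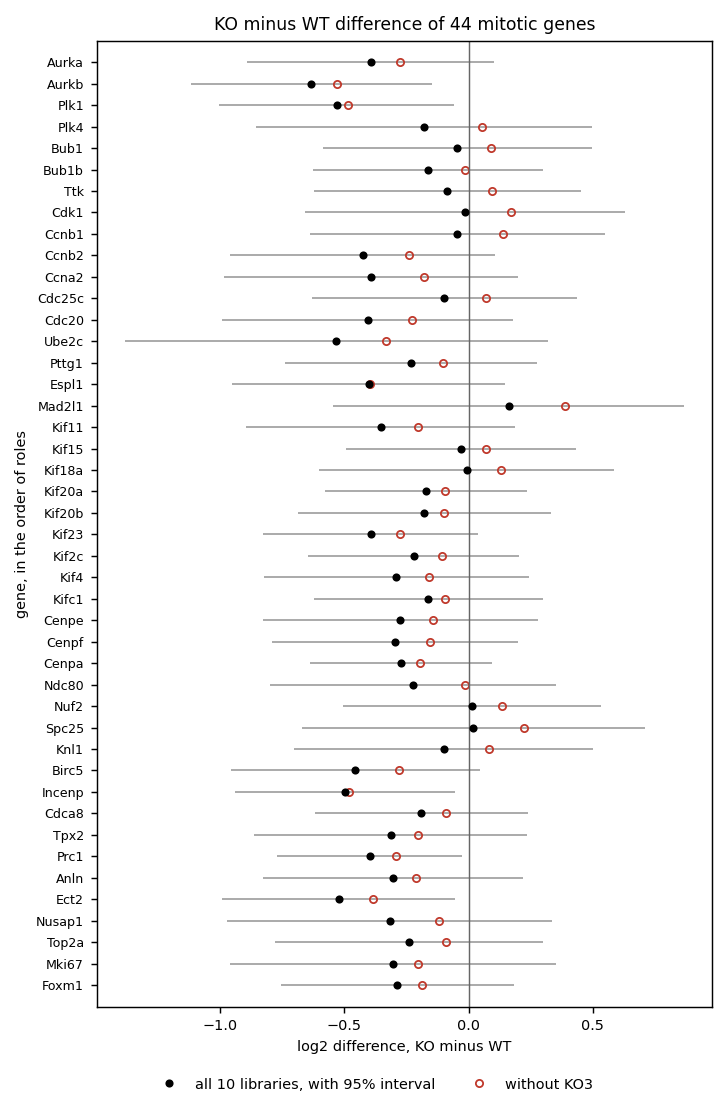
Log2 differences of 44 mitotic genes, KO minus WT (horizontal axis), with 95% intervals from limma (black, all 10 libraries) and the difference without KO3 (open red circles). Intervals of Aurkb, Plk1, Incenp, Ect2 and Prc1 stay below 0 before adjustment, and most red circles lie nearer to 0 than the black points.

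Of the 6 centromere and kinetochore genes 4 were lower in KO by fitted value and 2 higher, with 0 at an unadjusted p under 0.05. Their median log2 difference was -0.16, and without KO3 it was 0.033. Cenpa, the histone variant that marks centromeres, had 663, 565, 520.2, 756 and 727 normalized counts in KO1 to KO5, against 887, 915, 727, 720.4 and 646 in WT1 to WT5. WT3, WT4 and WT5 lay within the KO range, and WT1 and WT2 above it. Its level was 646 ± 102 in KO tumours, against 779 ± 116 in WT tumours (SD, 5 libraries a group; log2 difference -0.27 ± 0.17 SE, limma adjusted p = 0.874). Cenpf, a protein of the outer kinetochore, had 2412, 1960.1, 1344, 2261 and 2219 normalized counts in KO1 to KO5, against 2993, 1933, 2067, 2027 and 3675 in WT1 to WT5. WT1 and WT5 were high, and WT2, WT3 and WT4 lay among the KO values. Its level was 2039 ± 421 in KO tumours, against 2539 ± 766 in WT tumours (SD, 5 libraries a group; log2 difference -0.30 ± 0.23 SE, limma adjusted p = 0.898), and the difference was -0.15 without KO3 and -0.15 without WT5. Ndc80, Nuf2 and Spc25 encode subunits of 1 complex that grips microtubules. Their log2 differences were -0.22, 0.014 and 0.020, with 95% intervals of -0.80 to 0.35, -0.50 to 0.53 and -0.67 to 0.71. Knl1, the scaffold that recruits Bub1 to kinetochores, stood at -0.10.

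The chromosomal passenger complex unites Aurora B with inner centromere protein, survivin and borealin. All 3 partners were lower in KO by fitted value (median log2 difference -0.46, or -0.28 without KO3). Of these, 1 had an unadjusted p under 0.05, where 3.67% of all genes were lower at that p. Incenp, the scaffold that activates Aurora B, had 502, 549.6, 464, 526 and 403 normalized counts in KO1 to KO5, against 642, 598, 626, 1143 and 555 in WT1 to WT5. No KO library reached a WT library, and the gap between KO2 and WT5 was small beside the excess of WT4. Its level was 489 ± 57.4 in KO tumours, against 713 ± 243 in WT tumours (SD, 5 libraries a group; log2 difference -0.50 ± 0.20 SE, limma adjusted p = 0.726), and without WT4 the difference was -0.31. Birc5, which encodes survivin, had 315, 388, 224, 441 and 519 normalized counts in KO1 to KO5, against 502, 636, 377, 474 and 535 in WT1 to WT5. KO2, KO4 and KO5 lay within the WT range, and KO1 and KO3 below it. Its level was 377 ± 114 in KO tumours, against 505 ± 94.1 in WT tumours (SD, 5 libraries a group; log2 difference -0.46 ± 0.23 SE, limma adjusted p = 0.789), and the difference was -0.28 without KO3. Cdca8, which encodes borealin, stood at -0.19 (95% interval -0.62 to 0.24).

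The 5 genes of the spindle midzone and cytokinesis were all lower in KO by fitted value, with a median log2 difference of -0.32 (-0.21 without KO3). Of these, 2 had an unadjusted p under 0.05, where 3.67% of all genes were lower at that p. Ect2, the exchange factor that switches on RhoA at the division site, had 1376, 1217, 790.2, 1256 and 1276 normalized counts in KO1 to KO5, against 1945, 1426, 1292, 1464 and 2464 in WT1 to WT5. KO3 was far below the other KO libraries, KO1 exceeded WT3, and WT5 was highest. Its level was 1183 ± 227 in KO tumours, against 1718 ± 484 in WT tumours (SD, 5 libraries a group; log2 difference -0.52 ± 0.22 SE, limma adjusted p = 0.732). Without KO3 the difference of Ect2 was -0.38. Ect2 had the smallest adjusted p of any of the 44 genes under any alternative, 0.0504 in limma with sample weights, and its adjusted p reached 0.999 under others. Prc1, which crosslinks antiparallel microtubules, had 815, 868, 575, 819 and 834 normalized counts in KO1 to KO5, against 1214, 931, 844, 976 and 1183 in WT1 to WT5. KO3 was again low, and of the WT libraries WT3 alone lay below a KO library, KO2. Its level was 782 ± 118 in KO tumours, against 1029.6 ± 161.9 in WT tumours (SD, 5 libraries a group; log2 difference -0.40 ± 0.17 SE, limma adjusted p = 0.75). Without KO3 the difference of Prc1 was -0.29. Its exons share 911 bases with Rccd1 on the opposite strand, which held 56.2 to 79.7 normalized counts in KO and 50.7 to 86.4 in WT. The microtubule-binding genes Nusap1 and Tpx2 and Anln, whose protein anillin scaffolds the contractile ring, had log2 differences of -0.32, -0.31 and -0.30. Without WT5 that of Anln was -0.14.

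Top2a, Mki67 and Foxm1 differed by less than the spread of the libraries, with a median log2 difference of -0.29 (-0.19 without KO3). Mki67, which encodes the Ki-67 antigen that coats mitotic chromosomes, had 8590.2, 6837, 4716, 7182 and 4692 normalized counts in KO1 to KO5, against 9740.5, 4164, 7141, 6735 and 13699 in WT1 to WT5. WT5 was by far the highest, and WT2 was the lowest of all libraries. Its level was 6403 ± 1685 in KO tumours, against 8296 ± 3609.9 in WT tumours (SD, 5 libraries a group; log2 difference -0.30 ± 0.30 SE, limma adjusted p = 0.941; 95% interval -0.96 to 0.35), and without WT5 the difference was -0.095. Top2a, the topoisomerase that untangles sister chromatids, had 6489, 6567, 4163, 7560.0 and 7317 normalized counts in KO1 to KO5, against 9342, 5946, 5212, 7079.6 and 10997 in WT1 to WT5. KO3 was lowest, and 4 KO libraries lay between WT2 and WT1. Its level was 6419 ± 1344 in KO tumours, against 7716 ± 2409 in WT tumours (SD, 5 libraries a group; log2 difference -0.24 ± 0.25 SE, limma adjusted p = 0.947; 95% interval -0.78 to 0.30), and the difference was -0.091 without KO3 and -0.098 without WT5. Foxm1, a transcription factor of G2 and mitotic genes, had 593, 631, 432, 688 and 524 normalized counts in KO1 to KO5, against 558, 576, 557, 1085 and 806 in WT1 to WT5. WT4 was far above the rest, and 3 WT libraries were lower than KO1. Its level was 573 ± 99.2 in KO tumours, against 717 ± 231 in WT tumours (SD, 5 libraries a group; log2 difference -0.29 ± 0.22 SE, limma adjusted p = 0.894), and without WT4 the difference was -0.12.

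Not all mitotic genes followed the same libraries, and their base composition moved with this. In WT4 the deviation of the 44 genes from their means was higher where the GC content of the transcripts was higher (Pearson's r = 0.87, Spearman's rho = 0.84, across 44 genes that share 1 library and are not independent). In WT5 it ran the other way (r = -0.69, rho = -0.69). Over 17883 genes r was 0.53 in WT4 and -0.42 in WT5. The 15 mitotic genes richest in GC (48.7% to 57.6), among them Plk1, Aurkb and Incenp, averaged 0.55 in WT4 and 0.045 in WT5. The 15 poorest (38.0% to 43.5), among them Kif18a, Knl1 and Bub1, averaged -0.35 in WT4 and 0.61 in WT5. KO3 was low in both sets, at -0.59 and -0.69. The median difference between KO and WT was -0.39 in the GC-rich set and -0.18 in the GC-poor set, and -0.26 and -0.23 after trends of GC content and length were removed from each library. After that correction the median of all 44 was -0.27, KO3 was lowest for 40 genes, and 8 genes were lower at an unadjusted p under 0.05 (18.2%, against 4.56% of all genes), with 0 past the threshold; 0 were higher, against 3.99% of all genes. The log2 differences of Aurkb, Plk1 and Incenp were then -0.58, -0.46 and -0.41.

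**Figure D4:**
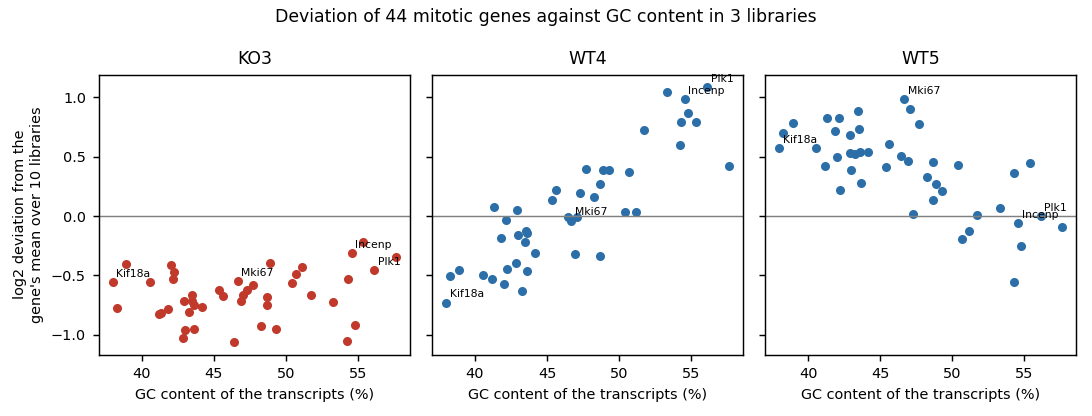
Deviation of 44 mitotic genes from their mean over 10 libraries on the log2 scale (vertical axis) against the GC content of their transcripts in percent (horizontal axis), in KO3, WT4 and WT5. Points run upward with GC content in WT4 (r = 0.87), downward in WT5 (r = -0.69) and lie below 0 throughout in KO3.

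Per length, Top2a and Mki67 were the most abundant transcripts of the 44. In RPKM, which scales reads to the length of the annotated exons and to the library total, Top2a averaged 53.9 ± 10.9 in KO and 65.6 ± 21.1 in WT and Mki67 48.7 ± 15.4 in KO and 63.9 ± 28.8 in WT (SD, 5 libraries a group), and these 2 genes do not differ from each other beyond their spread. Ccna2 and Anln followed, at 34.3 ± 10.9 in KO and 44.4 ± 10.4 in WT for Ccna2 and 25.7 ± 5.76 in KO and 33.4 ± 12.5 in WT for Anln, and then Ccnb2 at 24.2 ± 7.26 in KO and 31.8 ± 4.19 in WT, and the SDs of neighbours in this order overlap. The median of the 44 genes was 11.6. Plk1, at 10.4 ± 1.71 in KO and 15.5 ± 4.84 in WT, stood near it, and Aurkb, at 6.46 ± 1.06 in KO and 10.3 ± 2.82 in WT, below it. The least abundant were Kif18a, Cdc25c and Espl1, at 3.95, 3.92 and 2.87 over all libraries. Within groups the median SD of the 44 genes on the log2 scale was 0.38 in KO and 0.44 in WT, against 0.37 and 0.46 over all genes. Among the 4 KO libraries without KO3 it was 0.23 for the 44 genes. KO3 was left out because it was lowest for most of them, which by itself lowers the SD.

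Other genes of mitosis, counted together with 23 regulators of the programme, also had mostly lower fitted values in KO. Of 139 tested in 7 lists 107 had lower fitted values in KO and 32 higher (median log2 difference -0.14, or -0.079 without KO3), where 51% of all genes were lower. At an unadjusted p under 0.05 were 7 of the 139 lower and 1 higher, against 3.67% and 2.82% of all genes, and 0 passed the threshold in either direction. Among 32 further spindle and cytokinesis genes 27 were lower and 5 higher. Their median was -0.18, and 4 were lower and 0 higher at an unadjusted p under 0.05, against 3.67% and 2.82% of all genes. Tacc3, which stabilizes spindle fibres, had 527, 436, 363, 498 and 447 normalized counts in KO1 to KO5, against 621, 695, 500.1, 762 and 732 in WT1 to WT5. KO1 alone among KO libraries exceeded a WT library, WT3. Its level was 454 ± 63.1 in KO tumours, against 662 ± 105 in WT tumours (SD, 5 libraries a group; log2 difference -0.54 ± 0.17 SE, limma adjusted p = 0.589). Racgap1, the partner of Kif23 in centralspindlin, had 482, 575, 302, 536 and 601 normalized counts in KO1 to KO5, against 729.7, 652, 648, 839.9 and 624 in WT1 to WT5, with no overlap between the groups. Its log2 difference was -0.51 ± 0.20 (SE, limma adjusted p = 0.7), and the spindle protein gene Ckap2l stood at -0.43. Among 15 further genes of Cdk1 control 10 were lower (median -0.12, or 0.026 without KO3), and Wee1, the kinase that restrains Cdk1, the phosphatase gene Cdc25b and the kinase gene Melk had log2 differences of -0.57, -0.39 and -0.38.

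Of 26 further kinetochore and centromere genes 20 were lower and 6 higher (median -0.10, or 0.029 without KO3). Zwint, which docks checkpoint proteins at kinetochores, was 1 of the 6 with a higher fitted value. It had 2030.1, 2408, 2300.3, 2498 and 2876 normalized counts in KO1 to KO5, against 2142, 1913, 1792, 1483 and 1765 in WT1 to WT5, and KO1 alone lay within the WT range (log2 difference 0.41 ± 0.16 SE, limma adjusted p = 0.7). The centromere genes Cenpn and Cenpo stood at -0.50 and 0.34. The 19 condensin, cohesin and shugoshin genes had a median of -0.14 (-0.067 without KO3), with Cdca5, which encodes sororin, the centromere guardian Sgo1 and the cohesin subunit gene Smc3 at -0.50, -0.36 and -0.33. All 9 further checkpoint genes were lower (median -0.15, or -0.051 without KO3), and Mad1l1, Zwilch and Trip13, which encode 3 proteins of checkpoint assembly or disassembly, stood at -0.25, -0.24 and -0.24. Of 15 genes of the anaphase-promoting complex and its partners 10 were lower (median -0.077), with the inhibitor Fbxo5, the subunit gene Anapc5 and the activator Fzr1 at -0.34, -0.23 and -0.20. Among 23 regulators of the programme 17 were lower (median -0.070). Mybl2, which encodes B-Myb, had 90.9, 115, 80.1, 127 and 128 normalized counts in KO1 to KO5, against 163.7, 199, 123, 229 and 123 in WT1 to WT5, with WT3 and WT5 inside the KO range (log2 difference -0.60 ± 0.23 SE, limma adjusted p = 0.693), and E2f1 and E2f6 stood at -0.51 and 0.43.

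Genes of the G1 and S phases, like the mitotic genes, were lowest in KO3 and next in WT3, but their highest library was WT4 and not WT5. Of 28 tested, 25 were lower in KO and 3 higher (median -0.21, or -0.087 without KO3), where 51% of all genes were lower. At an unadjusted p under 0.05 were 4 lower and 1 higher, against 3.67% and 2.82% of all genes, and 0 passed the threshold. Their mean deviation was -0.16, -0.087, -0.53, 0.11 and 0.18 in KO1 to KO5, against 0.16, 0.23, -0.29, 0.25 and 0.16 in WT1 to WT5. The licensing factor gene Cdt1 and the helicase subunit gene Mcm6 had log2 differences of -0.61 and -0.56. Ccnd2, which encodes cyclin D2, was 1 of the 3 with a higher fitted value, with 3041, 2957, 2739, 2414 and 3176 normalized counts in KO1 to KO5, against 1493, 1306, 1581, 1673 and 1894 in WT1 to WT5 and no overlap between the groups (log2 difference 0.85 ± 0.16 SE, limma adjusted p = 0.307).

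The epithelial markers of the carcinoma were lowest and highest in other libraries than the mitotic genes. All 16 were lower in KO by fitted value (median log2 difference -0.82), and their mean deviation was -0.20, -1.18, 0.043, -0.19 and -0.90 in KO1 to KO5, against 0.46, -0.093, 0.80, 1.13 and 0.13 in WT1 to WT5. KO2 and KO5 had the lowest epithelial values, with mitotic genes near their mean at -0.064 and 0.10. KO3 had the lowest mitotic values, with epithelial markers at 0.043, and WT3 paired high epithelial markers (0.80) with low mitotic genes (-0.28). WT3 also had the highest deviation of the keratinocyte and hair markers, 5.73. The part of keratinocytes in its epithelial value was not tested. In KO1, KO2, WT1, WT4 and WT5 both lists deviated in the same direction, by -0.20, -1.18, 0.46, 1.13 and 0.13 for epithelial markers. The mitotic genes stood at -0.15, -0.064, 0.30, 0.066 and 0.39 there. T and NK cell markers, which were higher in 11 of 12 (median 0.81), deviated by -0.061, 0.44, 0.44, 0.00181 and 0.94 in KO1 to KO5, against -0.67, -0.23, -0.046, -0.030 and -0.79 in WT1 to WT5. Their summed level was 638 to 1509 normalized counts in KO and 397 to 723 in WT. Neutrophil markers were higher by fitted value in 9 of 10 (median 0.77; sum 2888 to 4752 in KO and 2296 to 5937 in WT), pan-leukocyte markers in 7 of 8 (0.35; sum 10328 to 14460.0 in KO and 8146 to 13615 in WT) and macrophage markers in 7 of 10 (0.19; sum 17716 to 24369 in KO and 11302 to 26355 in WT). Adipocyte markers were lower in 9 of 10 (median -1.42; sum 763 to 6049.6 in KO and 1121 to 10049.7 in WT). Fibroblast and endothelial markers had medians of -0.038 and 0.049, and the 2 markers of B and plasma cells tested had one of -0.25. Keratinocyte and hair markers had 13 of 15 in the table, all 13 lower in KO at an unadjusted p under 0.05. At that p, 3.67% of all genes were lower and 2.82% higher. Of the epithelial markers 12 of 16 were lower, and of the T and NK cell markers 7 of 12 higher. The keratinocyte and hair markers deviated by 2.54, 5.73 and 4.47 in WT2, WT3 and WT5. In WT1 and WT4 they deviated by -1.61 and -1.36, beside -2.45 to -1.39 in KO. They summed to 47.1 to 189 in KO and 123 to 10492 in WT. Of the 13, 9, among them Krt1 and Krt5, were at 0 in at least 1 library. Skeletal muscle markers (15 of 15) summed to 853 to 22090.0 in KO and 609.8 to 200341 in WT, with Acta1, Ckm, Myh4, Tnnc2 and Pvalb at 0 in at least 1 library. Without WT2, WT3 and WT5, the libraries with Krt1 reads, the median of the mitotic genes was -0.33. The part of any of these cell types in the mitotic differences was not tested.

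**Figure D5:**
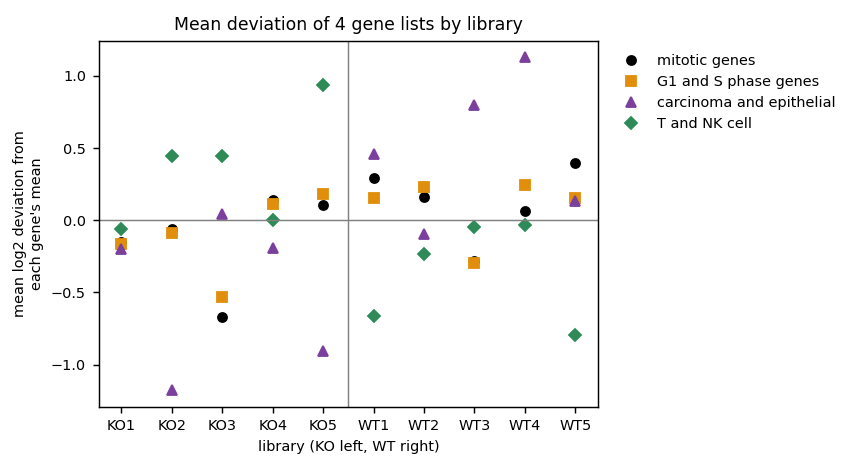
Mean deviation of 4 gene lists from each gene's mean on the log2 scale (vertical axis) in 10 libraries (horizontal axis, KO left and WT right). Mitotic genes (black circles) and G1 and S phase genes (orange squares) are both lowest in KO3, at -0.67 and -0.53, and differ most in WT5, at 0.39 and 0.16, while epithelial markers (purple triangles) are lowest in KO2 at -1.18.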

How the data were processed

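Total RNA was extracted on columns, depleted of ribosomal RNA and sequenced, per the labels' protocols. The authors deposited 1 table of normalized counts, a signal per gene that equals the read count divided by 1 size factor per library. Whole reads came out of 100% of values within 0.0001 of a read, and the size factors equal the median-of-ratios factors. Base calling with bcl2fastq 2.17 and genome build GRCm38 come from the submitters' processing notes. Aligner, counter, strand and use of molecular identifiers are not given in the sources used here.

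Symbols, coordinates and exon lengths came from GENCODE M21 (GRCm38) for 17953 of 18047 IDs. The 17975 genes that averaged 10 or more normalized counts were log2-transformed after adding 1, which shrinks the fold change of weakly expressed genes. limma 3.58.1 in R 4.3.3 compared 5 KO with 5 WT libraries, its variance prior following mean expression, and p-values were adjusted over those genes by the Benjamini-Hochberg method, with 0.05 as threshold. edgeR 4.0.16 and DESeq2 1.42.0 on the recovered reads were alternatives. The fit was tested on simulated data. Figures used matplotlib 3.10.9 in Python 3.11.15. The members and lists were chosen with earlier results of these data known. Values per library are given for the 2 genes of each role with the smallest p and for Mki67, Top2a and Cdk1, and up to 3 genes of each other list, those with the smallest p, are named. Those of Ube2c and of Tacc3, Racgap1, Zwint, Mybl2 and Ccnd2 were added after their values were seen. Exons of 13 of the 44 genes overlap those of another gene, in 11 cases a protein-coding one (Ccna2, Cdc20, Cdc25c, Cdca8, Foxm1, Kif18a, Kif20a, Kif4, Nusap1, Prc1, Ube2c), and their reads may include reads of the partner. WT2 and WT5, both numbered 170, had a chi-square per degree of freedom of 142 between them, within the range of WT pairs (38.4 to 177). They do not hold the same counts and were kept apart. Whether they came from 1 tumour or animal cannot be told from this value, because no pair known to share a tumour was available. With the pair averaged, 35 of the 44 genes had a lower fitted value in KO. Neither the check of the targeted gene nor its level is reported here.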

Additional observations from a re-analysis of the deposited data

Results flagged for a closer look

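Each group of 5 libraries was examined for a single library far from the others, gene by gene, in 88 groups. The gap to the nearest library, as a share of the group's range, had to exceed 0.71, which chance passes in about 1 of 20 groups, and 5 did. WT4 was the high library for Plk1 (762 normalized counts, share 0.926), Incenp (1143, share 0.853) and Aurkb (642, share 0.752). KO3 was the low library for Prc1 (575, share 0.821) and Ect2 (790.2, share 0.729). These are the same 5 genes that had an unadjusted p under 0.05. WT4 is also the library with the highest correlation of deviation with GC content (r = 0.87). There Plk1, Aurkb and Incenp deviated from their means by 1.09, 1.05 and 0.98 on the log2 scale. After the GC and length correction these deviations were 0.80, 0.83 and 0.60. The part of base composition in the 3 high values was not tested further.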

How the results depend on the processing

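Under all 26 alternatives 0 of the 44 genes passed the adjusted threshold, and 20 of the 44 kept a lower fitted value in KO throughout. The median ran from -0.59 within the libraries without the RESUB prefix to 0.044 within the prefixed ones. It ran from -0.36 to -0.13 with 1 library left out. Genes at an unadjusted p under 0.05 numbered 18 with sample weights, 0 among libraries with the prefix, 10 among those without it and 8 after the GC and length correction, and 1 to 9 with 1 library left out. Over all genes the calls numbered 121 in DESeq2, 408 with sample weights, 52 within the libraries without the prefix, 0 within the prefixed ones, with the pair numbered 170 averaged, without the libraries with Krt1 reads and after the correction, and 0 to 3 with 1 library left out. The titles give KO and WT libraries the same replicate numbers, but only KO3 and WT3 of the same-numbered libraries deviated together (correlation across genes 0.017, 0.099, 0.52, 0.026 and -0.23 for numbers 1 to 5), and 1 of 5 KO libraries correlated best with its own number, so the numbers were not taken as pairs. With the replicate number as a block the median was -0.27, with 6 genes at an unadjusted p under 0.05, 0 past the threshold and 1 call over all genes.

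Fitted differences turned sign for Cdk1 (-0.17 to 0.17), Kif18a (-0.19 to 0.14), Plk4 (-0.37 to 0.056), Bub1 (-0.17 to 0.093), Ttk (-0.21 to 0.093), Ccnb1 (-0.22 to 0.14), Cdc25c (-0.22 to 0.070), Kif15 (-0.18 to 0.091), Knl1 (-0.24 to 0.081), Nuf2 (-0.13 to 0.13), Spc25 (-0.16 to 0.22) and Mad2l1 (-0.020 to 0.39) with 1 library left out. With KO5 set alone against WT1 to WT4, these turned: Plk4, Bub1, Ttk, Cdk1, Ccnb1, Ccnb2, Ccna2, Cdc25c, Ube2c, Pttg1, Kif11, Kif15, Kif18a, Kif20b, Cenpf, Ndc80, Knl1, Birc5, Nusap1 and Top2a at 0.69, 0.52, 0.42, 0.57, 0.46, 0.21, 0.30, 0.35, 0.27, 0.12, 0.22, 0.33, 0.60, 0.21, 0.000242, 0.23, 0.58, 0.089, 0.36 and 0.12. With KO1 to KO4 set against WT5 alone, Ube2c, Mad2l1, Nuf2, Spc25 and Cdca8 at 0.039, -0.49, -0.36, -0.59 and 0.051 turned. So did Bub1, Cdk1, Ccnb1, Cdc25c, Kif15 and Kif18a at 0.038, 0.078, 0.047, 0.00245, 0.00255 and 0.096 with the pair averaged, and Bub1, Ttk, Cdk1, Cdc25c, Kif15, Kif18a and Knl1 at 0.056, 0.032, 0.080, 0.061, 0.082, 0.18 and 0.034 without the libraries with Krt1 reads. Signs also turned for Cdk1, Ube2c and Spc25 at 0.14, 0.15 and -0.062 with the prefix as a term, Cdk1, Nuf2 and Spc25 at 0.00276, -0.047 and -0.067 after the correction, Nuf2 and Spc25 at -0.21 and -0.078 with sample weights, Cdk1 and Spc25 at 0.00569 and -0.00402 in DESeq2, Cdk1 at 0.011 in edgeR and Nuf2 at -0.00292 with scaling to total reads. The cause was not tested. Each fit within 1 prefix class assumes that the lone library varies like the other group. With 5 libraries a group the 95% intervals of the 44 differences reached from -1.38 to 0.87.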
